A study of Mus musculus with 12 samples.

Results

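Platelet factor 4 (Pf4) and Tmem40 belong to a set of 10 platelet genes examined here in MC38 colon tumours, 1 day after the tumour-bearing mice received Salmonella or saline. The other 8 genes were Itga2b, Itgb3, Gp9, Gp1ba, Gp1bb, Gp6, Treml1 and Clec1b. All 10 symbols were found among the 18609 genes of the deposited tables. The set was chosen by the responses of Pf4 and Tmem40, whose treatment change differed between the host genotypes, so the values of that pair are given as a description, with no test. The 8 others were added as known genes of the platelet lineage.

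MC38 is a mouse colon cancer line. The hosts were C57BL/6 mice, labelled either TLR4 knockout (KO) or wild type (WT). TLR4 is the receptor through which cells sense the lipopolysaccharide of Gram-negative bacteria such as Salmonella. Total RNA of whole tumours was sequenced in 4 groups of 3 libraries: KO Salmonella, KO PBS, WT Salmonella and WT PBS. Salmonella or phosphate-buffered saline (PBS) had been injected intravenously in each case, and day 1 was the only time. The sources used here do not state host age, Salmonella strain, dose or which stretch of Tlr4 is deleted. The knockout label describes the host, and nothing in the labels says that the MC38 cells lack Tlr4. Titles number the libraries of each group as F-1, M-1, M-2, with no explanation of the letters. Nothing says that these are separate animals, and p-values here rest on library-to-library spread alone, part of which may be technical.

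Platelets are cell fragments without a nucleus that are shed by megakaryocytes and carry RNA inherited from them. They bind injured vessels and leucocytes, and release stored chemokines and clotting factors from their granules. Tumours also hold blood, so platelet transcripts in tumour RNA can come from platelets in the vessels, from platelets bound to other cells, or from other cells that express the same genes. In RNA of whole tumours, fewer cells of a type and less RNA per cell cannot be told apart. The genes examined fall into roles. Pf4 encodes a CXC chemokine stored in platelet alpha granules. Itga2b and Itgb3 encode the subunits of the fibrinogen receptor, and Itgb3 also pairs with the integrin alpha V chain in endothelial and other cells. Gp1ba, Gp1bb and Gp9 encode subunits of the receptor for von Willebrand factor. Gp6 and Clec1b encode receptors for collagen and for podoplanin, and Treml1 a receptor stored in alpha granules. Tmem40 encodes a membrane protein whose role is not well known.

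Because Pf4, Itga2b and Gp1ba are textbook targets of the GATA and ETS factors that drive megakaryocyte genes, their promoters are shown with those of Tmem40. The windows run from 250 bases before to 50 bases after the annotated start and come from RefSeq (GRCm38.p6). Of the 10 genes, 9 matched that table, and Itgb3 is named only. Capitals mark GATA motifs (AGATAA or TGATAA) and ETS motifs (CCGGAA or CAGGAA), searched on both strands. None of the matches shown overlaps another. The Pf4 window lies at chr5:90772185-90772484 on the plus strand. Tmem40 has a first start with the window chr6:115762417-115762716 and a second start with the window chr6:115758950-115759249, both on the minus strand. The Itga2b window is chr11:102469834-102470133 on the minus strand and the Gp1ba window chr11:70638872-70639171 on the plus strand.
Pf4 promoter: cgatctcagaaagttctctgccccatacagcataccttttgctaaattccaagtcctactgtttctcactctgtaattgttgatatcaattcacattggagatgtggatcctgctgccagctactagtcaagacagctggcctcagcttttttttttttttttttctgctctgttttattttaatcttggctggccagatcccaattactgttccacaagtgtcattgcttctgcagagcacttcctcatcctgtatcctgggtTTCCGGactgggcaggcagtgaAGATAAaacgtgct
Tmem40 first start: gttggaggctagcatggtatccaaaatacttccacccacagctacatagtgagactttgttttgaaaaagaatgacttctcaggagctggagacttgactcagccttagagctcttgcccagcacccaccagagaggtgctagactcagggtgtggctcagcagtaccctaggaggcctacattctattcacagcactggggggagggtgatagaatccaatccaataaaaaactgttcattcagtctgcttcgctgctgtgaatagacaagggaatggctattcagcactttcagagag
Tmem40 second start: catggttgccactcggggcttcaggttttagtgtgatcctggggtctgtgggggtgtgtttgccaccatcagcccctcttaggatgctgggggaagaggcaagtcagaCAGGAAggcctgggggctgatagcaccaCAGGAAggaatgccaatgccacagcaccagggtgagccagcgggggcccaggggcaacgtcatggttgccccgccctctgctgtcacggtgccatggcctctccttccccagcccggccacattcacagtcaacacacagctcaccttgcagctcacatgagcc
Itga2b promoter: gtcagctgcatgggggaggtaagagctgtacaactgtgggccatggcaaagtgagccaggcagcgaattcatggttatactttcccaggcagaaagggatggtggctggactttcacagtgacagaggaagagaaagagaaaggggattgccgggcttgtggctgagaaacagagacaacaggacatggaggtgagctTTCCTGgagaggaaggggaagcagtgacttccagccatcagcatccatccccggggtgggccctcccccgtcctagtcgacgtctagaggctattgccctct
Gp1ba promoter: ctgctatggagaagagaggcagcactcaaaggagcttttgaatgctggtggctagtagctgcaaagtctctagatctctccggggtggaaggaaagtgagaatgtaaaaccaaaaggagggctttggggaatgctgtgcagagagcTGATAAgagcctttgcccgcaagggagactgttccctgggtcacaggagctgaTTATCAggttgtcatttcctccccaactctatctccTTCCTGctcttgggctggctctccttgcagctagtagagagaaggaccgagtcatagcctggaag
Pf4 holds an ETS motif 15 bases and a GATA motif 37 bases after its start. Gp1ba holds both kinds as well, with 2 GATA motifs upstream of the start. Itga2b and the second start of Tmem40 hold ETS motifs only, and the first start of Tmem40 holds neither. Over all windows of the set, 4 of the 9 matched genes had a GATA motif (Pf4, Gp1ba, Gp6 and Clec1b), against 18.6% of 32851 promoters in the table. ETS motifs were found in 5 of the 9, against 41.4% of promoters. An NF-kB motif, searched by name on both strands, was found in 0 of the 9, against 4.5% of promoters. The shares are per promoter window, while a gene of the set counted if any of its windows matched. Tmem40, with 2 windows, counted for ETS through its second start alone. These are matches of letters and do not show binding. Pf4, with a GATA and an ETS match in its promoter, was the most abundant gene of the set, while Gp1ba, with both kinds too, had 16 fragments at most in a library.

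Libraries held 30514108 to 38769090 fragments, and the values are FPKM (fragments per kilobase of gene, scaled to library size), which allow levels to be compared between genes. At this depth 1 fragment in a gene of 1 kb equals 0.0258 to 0.0328 FPKM. Tlr4 had 1.73, 1.96 and 1.82 FPKM in KO Salmonella, 2.14, 3.15 and 1.59 in KO PBS, 2.62, 3.78 and 2.58 in WT Salmonella and 2.58, 2.48 and 2.53 in WT PBS libraries (always F-1, then M-1, then M-2). Tlr4 RNA was thus present in every library labelled knockout, and total Tlr4 does not check those labels because the deleted part is not stated. Epithelial genes (Krt8, Krt18, Krt19, Epcam, Cdh1 and Cldn7) summed to 0.417 to 2.46 FPKM over the 12 libraries, so the epithelial markers of a colon cancer were near 0. Libraries titled F held 0 or 1 fragments of Y-linked genes and those titled M 266 to 1247. The letters thus went with the near absence or the presence of Y-linked RNA, and the spread within each group spans that difference. WT Salmonella M-2 stood apart from its group: its counts differed from those of F-1 and M-1 by chi-squares of 146 and 175 per gene, against 56.9 between F-1 and M-1 and 17.6 to 67.9 within the other groups. Results for Pf4, Itgb3 and Itga2b, and printed changes of other genes in WT hosts that move by more than 1.5-fold without it, are also given without it.

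Pf4 was the highest of the 10 genes, with a median over the 12 libraries of 18.6 FPKM. Itgb3 followed at 1.98 and Tmem40 at 1.58 FPKM, whose ranges overlapped (1.36 to 9.89 and 0.845 to 4.90 FPKM). Itga2b was lower, at 0.412 FPKM, and Gp1bb lower still, at 0.224 FPKM. Gp1ba had a median of 0.0297 FPKM, and Gp9, Gp6, Treml1 and Clec1b had medians at or under 0.0055 FPKM. The set therefore spans the scale from an abundant chemokine transcript to receptors with a handful of fragments. In GENCODE M21 (GRCm38) Tmem40 lies at chr6:115729131-115762410 on the minus strand. The fibrinogen receptor genes share chromosome 11, with Itga2b at chr11:102453297-102470122 on the minus strand and Itgb3 at chr11:104608000-104670476 on the plus strand. None of the other 9 genes lies on chromosome 5 with Pf4.

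Pf4 had 38.7, 28.9 and 26.2 FPKM in KO Salmonella, against 7.14, 8.50 and 11.0 FPKM in KO PBS. In WT hosts it had 122, 131 and 142 FPKM with Salmonella, against 9.09, 9.44 and 9.85 FPKM with PBS. With Salmonella, every library of either genotype lay above every PBS library, and all WT libraries lay above all KO libraries. With PBS the genotypes overlapped. The group means were 31.2 ± 6.58, 8.88 ± 1.97, 132 ± 10.1 and 9.46 ± 0.381 FPKM in KO Salmonella, KO PBS, WT Salmonella and WT PBS (SD, n = 3 each). Salmonella over PBS was 3.52-fold in KO and 13.9-fold in WT hosts by these means, and KO over WT was 0.237-fold with Salmonella and 0.939-fold with PBS. Fragments behind these values numbered 139 to 3162 per library. WT Salmonella M-2, which stood apart over all genes, had the highest Pf4 of its group, and without it the WT log2 change was 3.96 in place of 3.92.

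Tmem40 differed in direction between the hosts. It had 1.01, 1.34 and 1.39 FPKM in KO Salmonella, against 1.70, 2.59 and 2.94 FPKM in KO PBS, so all 3 KO Salmonella libraries were lower. In WT Salmonella it had 3.97, 3.76 and 4.90 FPKM, against 1.34, 1.45 and 0.845 FPKM in WT PBS, so all 3 WT Salmonella libraries were higher. With PBS, each KO library lay above each WT library, at a mean of 2.41 ± 0.64 against 1.21 ± 0.325 FPKM (SD, n = 3 each). The order of group means was WT Salmonella, KO PBS, KO Salmonella and WT PBS, of which KO Salmonella (1.25 ± 0.207 FPKM) and WT PBS overlapped. Tmem40 rested on 53 to 313 fragments per library. Its log2 difference between the changes in KO and in WT hosts was -2.32 and that of Pf4 -2.13, both on the log2(FPKM + 0.5) scale, which understates changes of low genes. Over all 12164 tested genes 3 were called for such a difference (0.0247%), and 0 with voom on the recovered fragments. Because the pair was chosen on it, no call is given for Pf4 or Tmem40 and nothing is read from that share. Without WT Salmonella M-2 the number was 2311 over all genes, without F-1 of that group 5 and without its M-1 9. With any other library left out it was 2 or 3.

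**Figure D1:**
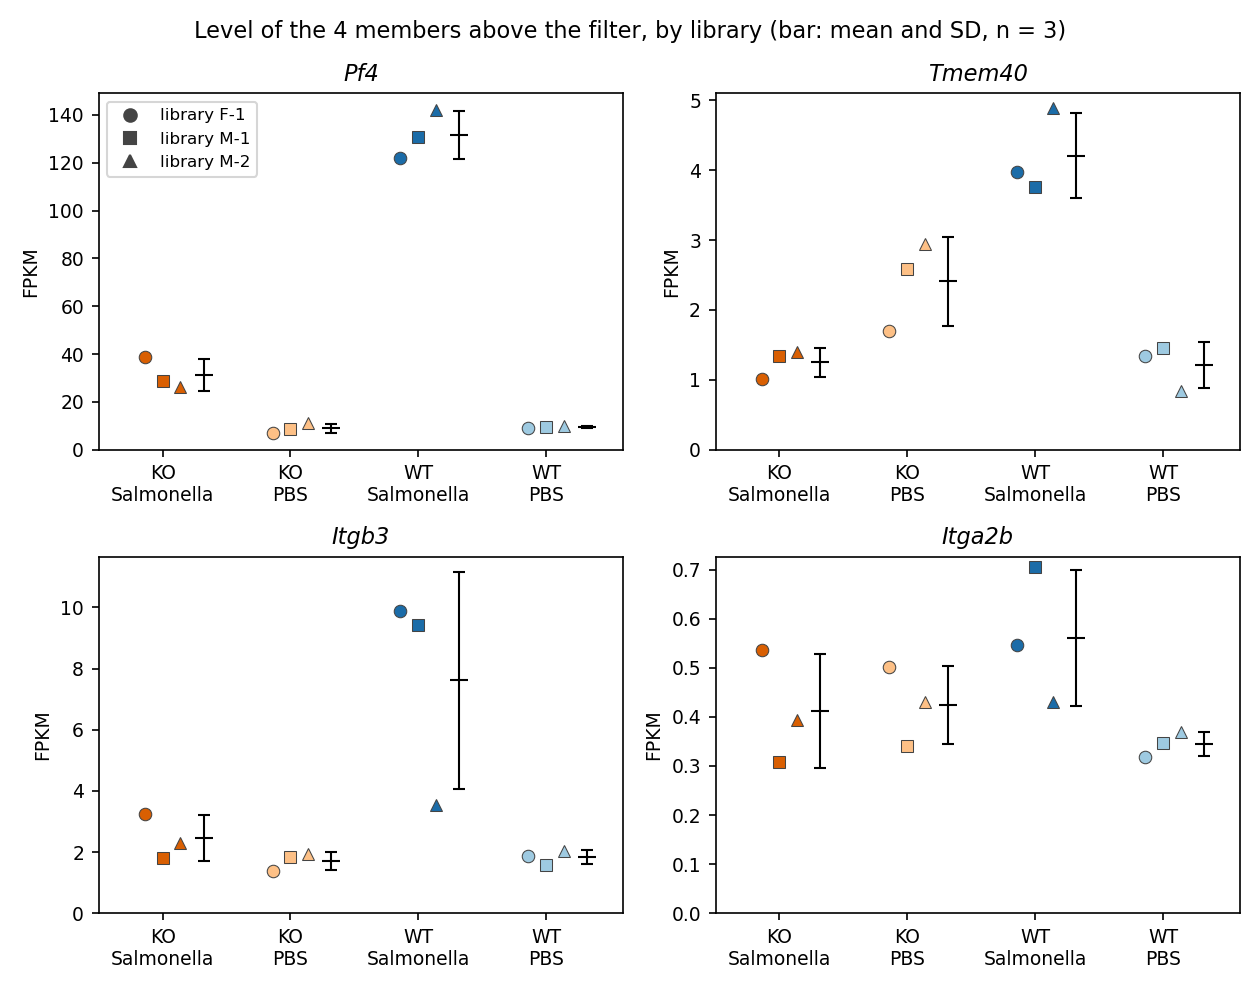
FPKM (linear axes from 0) of Pf4, Tmem40, Itgb3 and Itga2b in each library, by host genotype and treatment; the marker shape gives the title label, and the bar the mean and SD of 3 libraries. Pf4 lies between 122 and 142 FPKM in WT Salmonella and between 26.2 and 38.7 in KO Salmonella, Tmem40 is lowest in KO Salmonella and WT PBS, and WT Salmonella M-2 lies apart for Itgb3.

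Itgb3 and Itga2b were the only other genes of the set above the filter for testing (at least 0.5 FPKM in at least 3 libraries). Itgb3 had 3.26, 1.79 and 2.31 FPKM in KO Salmonella and 1.36, 1.85 and 1.92 FPKM in KO PBS, which overlapped. In WT hosts it had 9.89, 9.43 and 3.53 FPKM with Salmonella, against 1.86, 1.58 and 2.03 FPKM with PBS. All WT Salmonella libraries were above all others, though M-2 came close to the highest KO Salmonella library. Itgb3 rose in WT hosts by 1.87 (log2 fold change, SE 0.37, limma adjusted p = 0.00515, higher in 3 of 3 libraries), and by 2.40 without WT Salmonella M-2. In KO hosts its change was 0.42 (SE 0.37, adjusted p = 0.566). With Salmonella it was lower in KO than in WT hosts, at -1.52 (SE 0.37, adjusted p = 0.0336). That last call is weak: it was lost in 9 of 21 alternatives, whose adjusted p reached 0.158, among them each that left out WT Salmonella F-1 (0.129) or M-1 (0.128), KO Salmonella M-1 (0.12) or M-2 (0.1), or WT PBS F-1 (0.0508) or M-2 (0.0539). The difference between the changes in the KO and WT hosts was -1.45 (SE 0.52, adjusted p = 0.289) and did not pass. It passed without WT Salmonella M-2 (-1.98, limma adjusted p = 0.00219), where 2311 of all 12164 genes did.

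Itga2b, which makes the platelet-restricted chain of the same receptor, differed less between groups. It had 0.536, 0.308 and 0.393 FPKM in KO Salmonella, against 0.501, 0.341 and 0.431 FPKM in KO PBS. In WT hosts it had 0.547, 0.706 and 0.431 FPKM with Salmonella, against 0.319, 0.346 and 0.368 FPKM with PBS. The WT groups did not overlap and the KO groups did. Its log2 change was -0.01 (SE 0.18, limma adjusted p = 0.984) in KO and 0.43 (SE 0.18, adjusted p = 0.076) in WT hosts, and the WT change passed without WT Salmonella M-2 (0.57, adjusted p = 0.0174). KO differed from WT by -0.31 with Salmonella (adjusted p = 0.246) and by 0.13 with PBS (adjusted p = 1). Each library held 41 to 74 fragments of Itga2b, and 4 of 12 libraries reached 0.5 FPKM.

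Of these 2 tested genes, 1 was thus called higher and 0 lower after Salmonella in WT hosts, where 18.6% and 17% of all 12164 tested genes were called higher and lower. In KO hosts 0 were called, against 0.444% higher and 0.329% lower among all genes; neither had an unadjusted p under 0.05, and voom called 0. Between KO and WT with Salmonella, 0 were called higher and 1 lower, against 3.39% and 5.65%; voom called 0. With PBS 0 were called (0 at an unadjusted p under 0.05 and 0 in voom), against 0% of all genes, of which 173 had an unadjusted p under 0.05. For the difference between the hosts in the treatment change 0 of the 2 were called (1 at an unadjusted p under 0.05, 0 in voom), against 0.0247% of all genes. A count over 2 genes cannot be read against these shares.

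The fibrinogen receptor subunits and Pf4 did not keep a fixed proportion within libraries. Itgb3 over Itga2b was 6.08, 5.82 and 5.87 in KO Salmonella against 2.72, 5.42 and 4.46 in KO PBS, and 18.1, 13.4 and 8.2 in WT Salmonella against 5.82, 4.56 and 5.52 in WT PBS. Pf4 over Itga2b was 72.1, 93.8 and 66.5 in KO Salmonella against 14.3, 24.9 and 25.5 in KO PBS. In WT hosts that ratio was 223, 185 and 330 with Salmonella against 28.5, 27.3 and 26.7 with PBS. Pf4 made up 86.1% to 88.9% of the summed FPKM of the 10 genes in KO Salmonella, 62.9% to 66.2% in KO PBS, 89.3% to 93.8% in WT Salmonella and 70.5% to 71.9% in WT PBS. Pf4 was chosen for its own response, so the ratios and shares that hold Pf4 were bound to move with it. They are given as a description only.

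The other 6 genes, receptors that define platelets, lay below the filter. Of these, Gp9, Gp6, Treml1 and Clec1b were at 3 fragments or fewer in 9 to 12 of the 12 libraries and Gp1ba in 5, while Gp1bb was above 3 in each. Gp1bb had 30, 9 and 7 fragments in KO Salmonella, 16, 16 and 23 in KO PBS, 12, 17 and 31 in WT Salmonella and 16, 17 and 31 in WT PBS. Its exons overlap those of Sept5 in GENCODE, and without a stated strand setting the source of these fragments is uncertain. Gp1ba, which binds von Willebrand factor, had 6, 9 and 2 fragments in KO Salmonella, 0, 3 and 0 in KO PBS, 4, 3 and 6 in WT Salmonella and 7, 10 and 16 in WT PBS. Its highest library was therefore one with PBS. Gp9 had 1, 0 and 1 fragments in KO Salmonella, 0 in each KO PBS library, 0, 9 and 6 in WT Salmonella and 4, 1 and 0 in WT PBS.

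Gp6, the collagen receptor, had 0, 1 and 1 fragments in KO Salmonella, 0 in each KO PBS library, 1, 6 and 1 in WT Salmonella and 0, 0 and 1 in WT PBS. Treml1 held 1, 0 and 0 fragments in KO Salmonella, 0, 1 and 0 in KO PBS, 4, 0 and 1 in WT Salmonella and 0, 0 and 7 in WT PBS. Clec1b, the podoplanin receptor, had no more than 3 fragments in any library and 0 in 8 of 12; its exons overlap those of Clec9a. The limit that a count of 0 allows, 3 fragments, equals 0.0661 to 0.084 FPKM for Clec1b, 0.0322 to 0.0409 for Gp9 and 0.011 to 0.014 for Gp6, which covers counting error only. The fragments of Gp9, Gp1ba, Gp6, Treml1 and Clec1b together came to 4 to 11 per KO Salmonella library, 0 to 4 in KO PBS, 9 to 19 in WT Salmonella and 11 to 24 in WT PBS. The WT PBS and WT Salmonella ranges of that sum overlapped, but the genes in it went different ways. Over the 3 libraries of a group, Gp1ba had 33 fragments in WT PBS and 13 in WT Salmonella. In the same order Gp9 had 5 and 15, Gp6 1 and 8, Treml1 7 and 5, and Clec1b 1 and 1. In a fit with no filter on low values, 0 of the 6 passed in any of the 5 comparisons in limma, with 1 at an unadjusted p under 0.05 in 3 of the comparisons; voom did not include them. Gp1ba lay lower in KO PBS than in WT PBS in 3 of 3 libraries, at -0.15 (log2(FPKM + 0.5) scale, SE 0.04, limma adjusted p = 1), and was not called. No call was thus made for any of the 6, which does not show that they were alike between groups.

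**Figure D2:**
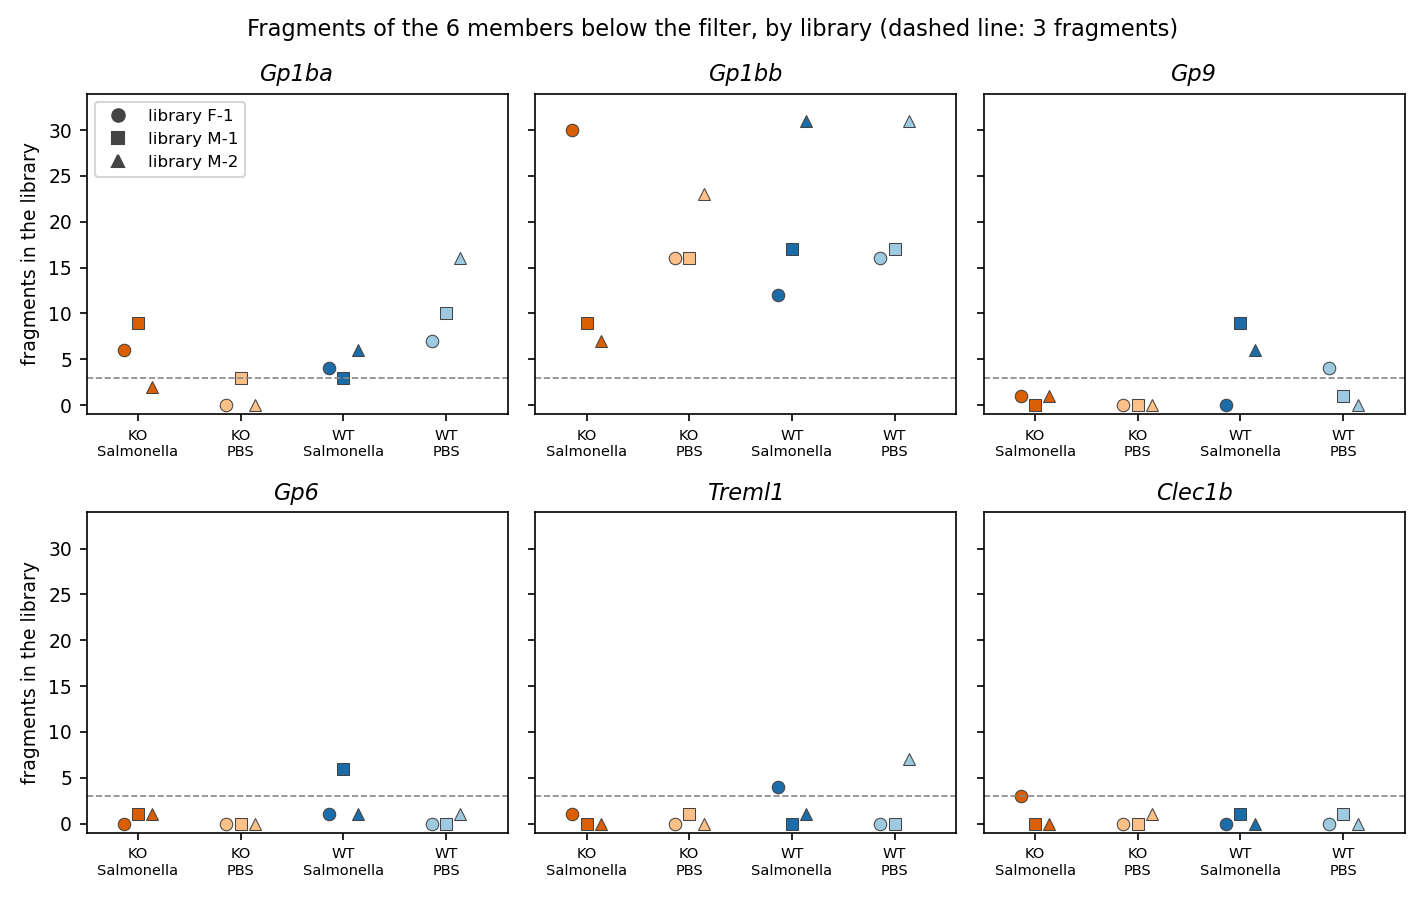
Fragments (linear axis) of the 6 platelet receptor genes below the filter in each library, by host genotype and treatment, with a dashed line at 3 fragments. No gene exceeds 31 fragments in a library, Clec1b never exceeds 3, and no gene separates the Salmonella from the PBS libraries in both hosts.

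The label of a platelet set thus holds unevenly. Gp5, Tubb1 and Gata1, named next, were picked after their values were seen. Of the defining platelet and megakaryocyte genes outside the set, Gp5, another subunit of the von Willebrand factor receptor, had 0 fragments in all KO Salmonella libraries, 0 to 2 in KO PBS, 0 or 1 in WT Salmonella and 0 to 3 in WT PBS. Tubb1, the tubulin of the platelet marginal band, had 7 fragments at most. Gata1, a factor of megakaryocyte and red cell genes, had 0 to 3 fragments in KO Salmonella, 0 or 1 in KO PBS, 0 to 6 in WT Salmonella and 0 to 3 in WT PBS. Some other genes below the filter, from the lists described below, had more. Summed over 3 libraries, Mmrn1 had 23 fragments in KO Salmonella, 1 in KO PBS, 86 in WT Salmonella and 9 in WT PBS. In that order Itga2 had 193, 101, 613 and 125, Rasgrp2 151, 102, 280 and 107, and Tal1 133, 62, 197 and 76. P2rx1 (95, 83, 86 and 92) and Alox12 (27, 27, 10 and 36) were not highest in WT Salmonella. The gene nearest to Pf4 in both place and role, Ppbp, which encodes the precursor of another alpha granule chemokine, was highest in the same group as Pf4, at a far lower level. It had 0.715, 1.05 and 1.05 FPKM in KO Salmonella against 0, 0.024 and 0.127 in KO PBS, and 1.63, 5.72 and 6.03 FPKM in WT Salmonella against 0.197, 0.0488 and 0 in WT PBS. The gene passed the filter for testing through Salmonella libraries alone, so its entry to the test favoured a rise. Ppbp rose in WT hosts by 3.06 (log2 fold change, SE 0.33, limma adjusted p = 0.000326), and its change in KO hosts was 1.37 (SE 0.33, adjusted p = 0.0852; passed in 4 of 21 alternatives). The added 0.5 FPKM compresses this low gene: by group means Salmonella over PBS was 18.7-fold in KO and 54.3-fold in WT hosts, more than for Pf4, but over 6 and 10 summed PBS fragments. Over the alternatives, its log2 change ran from 0.87 to 4.52 in KO and from 2.31 to 6.38 in WT hosts. Pf4 exceeded Ppbp by 25 to 54 times in KO Salmonella and 22.8 to 75.1 times in WT Salmonella libraries.

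Pf4 lies on chromosome 5, from 90772435 to 90773383 on the plus strand (GRCm38, GENCODE M21; the authors' own build is not stated), in the cluster of CXC chemokine genes. Its neighbours were looked at after their values had been seen, so only levels are given. Cxcl5, which starts 13.1 kb upstream of the Pf4 start and encodes a neutrophil attractant, had 14.5, 7.23 and 10.04 FPKM in KO Salmonella against 0.875, 0.236 and 0.447 in KO PBS, and 100.6, 78.3 and 31.6 FPKM in WT Salmonella against 0.758, 0.351 and 0.602 in WT PBS. Cxcl3, 13.7 kb downstream, had 25.3, 18.2 and 21.5 FPKM in KO Salmonella against 0 to 0.256 in KO PBS, and 172, 621 and 84.9 FPKM in WT Salmonella against 0 to 0.397 in WT PBS. Cxcl1 and Cxcl2, 118.8 and 131.4 kb downstream, averaged 55.8 and 55.7 FPKM in KO Salmonella against 5.49 and 0.466 in KO PBS, and 262 and 475 FPKM in WT Salmonella against 4.11 and 1.41 in WT PBS. Cxcl15, 22.1 kb downstream, had 4 fragments at most. Among these genes Pf4 had the highest level with PBS in each group, and its 3 WT Salmonella libraries lay closest together relative to their mean (SD 10.1 FPKM at a mean of 132), while Cxcl2 had an SD of 466 FPKM at a mean of 475. Pf4 was chosen on its difference between hosts, and such a choice favours genes with little spread within groups. Its small spread is therefore given as a description only.

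**Figure D3:**
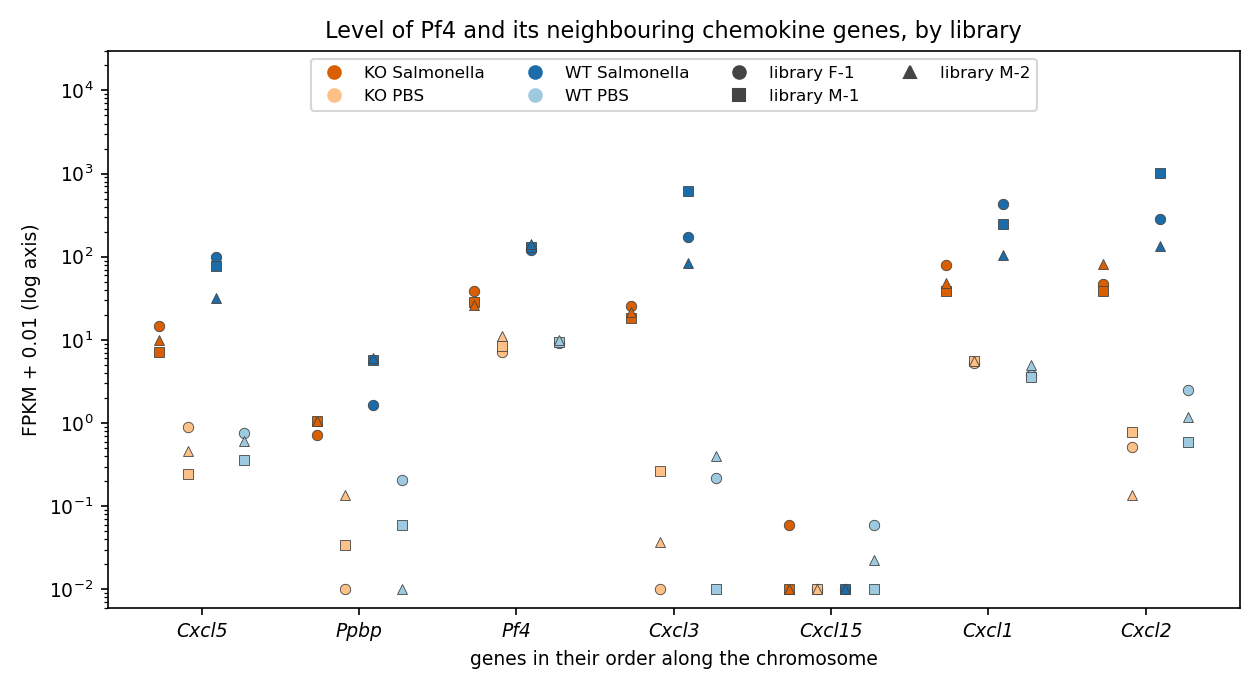
FPKM plus 0.01 (log axis) of Pf4 and the CXC chemokine genes around it in each library, in chromosome order; colours give host genotype and treatment, and marker shapes the title label. Apart from Cxcl15, which stays near 0, each gene has its WT Salmonella libraries above its KO Salmonella libraries and these above both PBS groups.

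The genes whose pattern over the 12 libraries lay closest to that of Pf4 were ranked by the root mean square difference of mean-centred log2 values. The 10 nearest were Steap4, Ctla2a, Wfdc17, Depp1, Ms4a8a, Ly6g, Tmem252, Asprv1, Saa2 and Lox, at distances of 0.484 to 0.531. Steap4, a metalloreductase gene, averaged 2.89 FPKM in KO Salmonella, 0.544 in KO PBS, 11.1 in WT Salmonella and 0.705 in WT PBS. Ly6g, a neutrophil surface marker, averaged 1.15, 0, 3.62 and 0.0094 FPKM in the same order of groups. Ppbp ranked 13th at a distance of 0.555, and the granule genes Thbs1 and F13a1 15th and 72nd. The other tested genes of the set were further away, with Itgb3 at rank 226, Tmem40 at rank 706 and Itga2b at rank 2397. Around Tmem40 the nearest genes were C1qtnf12, Acy1, Stap2, Rbm3-ps, Isyna1, Pla2g7, Lmo1, Myoz2, Tspan12 and Rbm3, at 0.266 to 0.396. C1qtnf12, a secreted protein gene of the adiponectin-like family, had 1.27, 2.34 and 2.64 FPKM in KO Salmonella against 1.94, 2.98 and 3.74 in KO PBS, and 6.39, 5.04 and 7.24 FPKM in WT Salmonella against 2.75, 2.52 and 2.30 in WT PBS. Rbm3 and its pseudogene Rbm3-ps may share fragments. Tmem40 changes over a narrow range, so weakly changing genes score near it too: Itga2b lay at 0.59. These genes were picked for their likeness and were not tested for it.

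Other platelet genes were grouped by role. These lists were drawn up with earlier results of these data known, and a gene can be expressed by other tumour cells too. Of 16 genes of granule contents and secretion, 14 were tested and in WT hosts 7 rose and 2 fell (18.6% and 17% over all genes), with a median log2 change of 0.64, against -0.01 over all genes. Selp, P-selectin of platelets and endothelium, had 1.38, 0.345 and 0.59 FPKM in KO Salmonella against 0.22, 0.136 and 0.0399 in KO PBS, and 14.8, 19.7 and 3.11 FPKM in WT Salmonella against 0.233, 0.0538 and 0.345 in WT PBS. It rose in WT hosts by 4.04 (log2 fold change, SE 0.6, limma adjusted p = 0.00183; voom adjusted p = 0.0593), and by 4.89 without WT Salmonella M-2. Thbs1, thrombospondin 1, had 49.3, 38.0 and 40.4 FPKM in KO Salmonella against 11.3, 14.7 and 13.02 in KO PBS, and 184, 381 and 67.1 FPKM in WT Salmonella against 13.3, 13.1 and 16.4 in WT PBS. Its WT change was 3.71 (SE 0.52, adjusted p = 0.00144), and 4.46 without WT Salmonella M-2. In KO hosts 0 of the 14 passed in limma (5 at an unadjusted p under 0.05, 0 in voom), with a median of 0.05, and Thbs1 had 1.70 (adjusted p = 0.132). Over all genes only 0.444% were called higher and 0.329% lower in KO hosts, so a count of 0 is no result about a list.

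Of 22 platelet receptor and signalling genes, 14 were tested, of which 5 rose and 1 fell in WT hosts (18.6% and 17% over all genes), with a median of 0.59. The count of rises was 2 without WT Salmonella F-1 and 2 without M-1. Slc2a3, a glucose transporter, rose by 1.52 (SE 0.31, limma adjusted p = 0.00507), F2rl3, a thrombin receptor, by 1.05 (SE 0.23, adjusted p = 0.00604), and Plcg2, a phospholipase that acts downstream of Gp6 and Clec1b, fell by 0.80 (SE 0.19, adjusted p = 0.0102). In KO hosts 0 of the 14 passed (2 at an unadjusted p under 0.05, 0 in voom), with a median of -0.15. Over all genes 0.444% were called higher and 0.329% lower there. Of 18 genes of megakaryocyte transcription and platelet formation, 11 were tested: in WT hosts Nfe2 (2.28, adjusted p = 0.0015) and Plek (1.58, adjusted p = 0.0145) rose and Meis1 fell (-0.65, adjusted p = 0.0102), at a median of 0.06. A count of 2 rises among 11 is near the 18.6% over all genes, and is no result about that list. Nfe2 had 2.76 and Plek 2.04 without WT Salmonella M-2. Nfe2, a transcription factor of platelet release that neutrophils express too, had 0.771, 0.285 and 0.732 FPKM in KO Salmonella against 0.118, 0.269 and 0.0685 in KO PBS, and 2.63, 3.77 and 1.07 FPKM in WT Salmonella against 0.124, 0.188 and 0.0672 in WT PBS. Plek lost its call without WT Salmonella F-1 (adjusted p = 0.0511), which left 1 rise on that list. None of these 11 passed in KO hosts (2 at an unadjusted p under 0.05, 0 in voom), near the same low shares over all genes.

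Of 11 ligands and receptors of the set's proteins, 10 were matched and 8 tested, of which 4 rose and 0 fell in WT hosts (18.6% and 17% over all genes), at a median of 0.7. They were Col1a1 (1.97, limma adjusted p = 0.00508) and Col1a2 (2.46, adjusted p = 0.00417), the chains of the collagen that Gp6 binds, Pdpn (1.19, adjusted p = 0.00735), the ligand of Clec1b, and Vwf (1.14, adjusted p = 0.0147), the ligand of the Gp1ba complex, which is on the granule list as well. Pdpn had 43.7, 26.1 and 40.8 FPKM in KO Salmonella against 25.3, 32.1 and 27.9 in KO PBS, and 52.8, 59.2 and 35.0 FPKM in WT Salmonella against 24.2, 22.9 and 24.3 in WT PBS. Its receptor gene Clec1b was at 3 fragments or fewer throughout. None of these 8 passed in KO hosts (3 at an unadjusted p under 0.05, 0 in voom), against 0.444% higher and 0.329% lower over all genes. For the difference between hosts in the treatment change, 0 genes of the 4 lists passed in limma or voom, with 6, 5, 3 and 2 at an unadjusted p under 0.05, in the order of the lists above. That rests on WT Salmonella M-2: without it 2311 of all 12164 genes passed for that difference, in place of 3 (0.0247%). Among them were Selp, Thbs1, Nfe2, Plek, Meis1 and Pdpn (limma adjusted p = 0.000997, 0.00282, 0.0038, 0.0231, 0.0443 and 0.0144). Ppbp and Thbs1 then passed in KO hosts (limma adjusted p = 0.036 and 0.0101).

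With Salmonella, the genes of these 4 lists that passed between the hosts were all lower in KO than in WT. There were 7 of 14 granule genes, 2 of 14 receptor genes, 2 of 11 megakaryocyte genes and 3 of 8 ligands, against 5.65% over all genes. This was not particular to platelet lists. Of the tested markers of other cells described below, 12 of 13 neutrophil, 11 of 15 endothelial and 5 of 6 red cell genes were also lower in KO. Of the macrophage markers 0 of 14 passed. In voom these marker counts were 7, 11, 2 and 0. For granule genes the count was 1 without WT Salmonella F-1, 0 without its M-1 and 8 without its M-2. It was 0 without KO Salmonella M-1 or M-2, 3 without KO Salmonella F-1 or WT PBS M-2, 4 without WT PBS M-1 or KO PBS F-1, and 3 in voom. Counts of the other 3 lists were 0 without WT Salmonella F-1 or M-1 and without KO Salmonella M-1 or M-2, and 8, 4 and 5 without WT Salmonella M-2. The receptor count was 0 without KO Salmonella F-1, 1 without KO PBS F-1 or any WT PBS library, and 5 without KO PBS M-2. Without WT PBS M-2 the megakaryocyte and the ligand count were 1 each, and the ligand count was 1 without KO Salmonella F-1. In voom these 3 counts were 0, 0 and 1. Ppbp (-1.76, limma adjusted p = 0.0162), Selp (-3.26, adjusted p = 0.0179) and Thbs1 (-2.14, adjusted p = 0.0356) were among those that passed; without WT Salmonella M-2 they had -1.56, -4.11 and -2.89. With PBS 0 genes of the lists passed, against 0% of all genes, and 0 had an unadjusted p under 0.05.

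**Figure D4:**
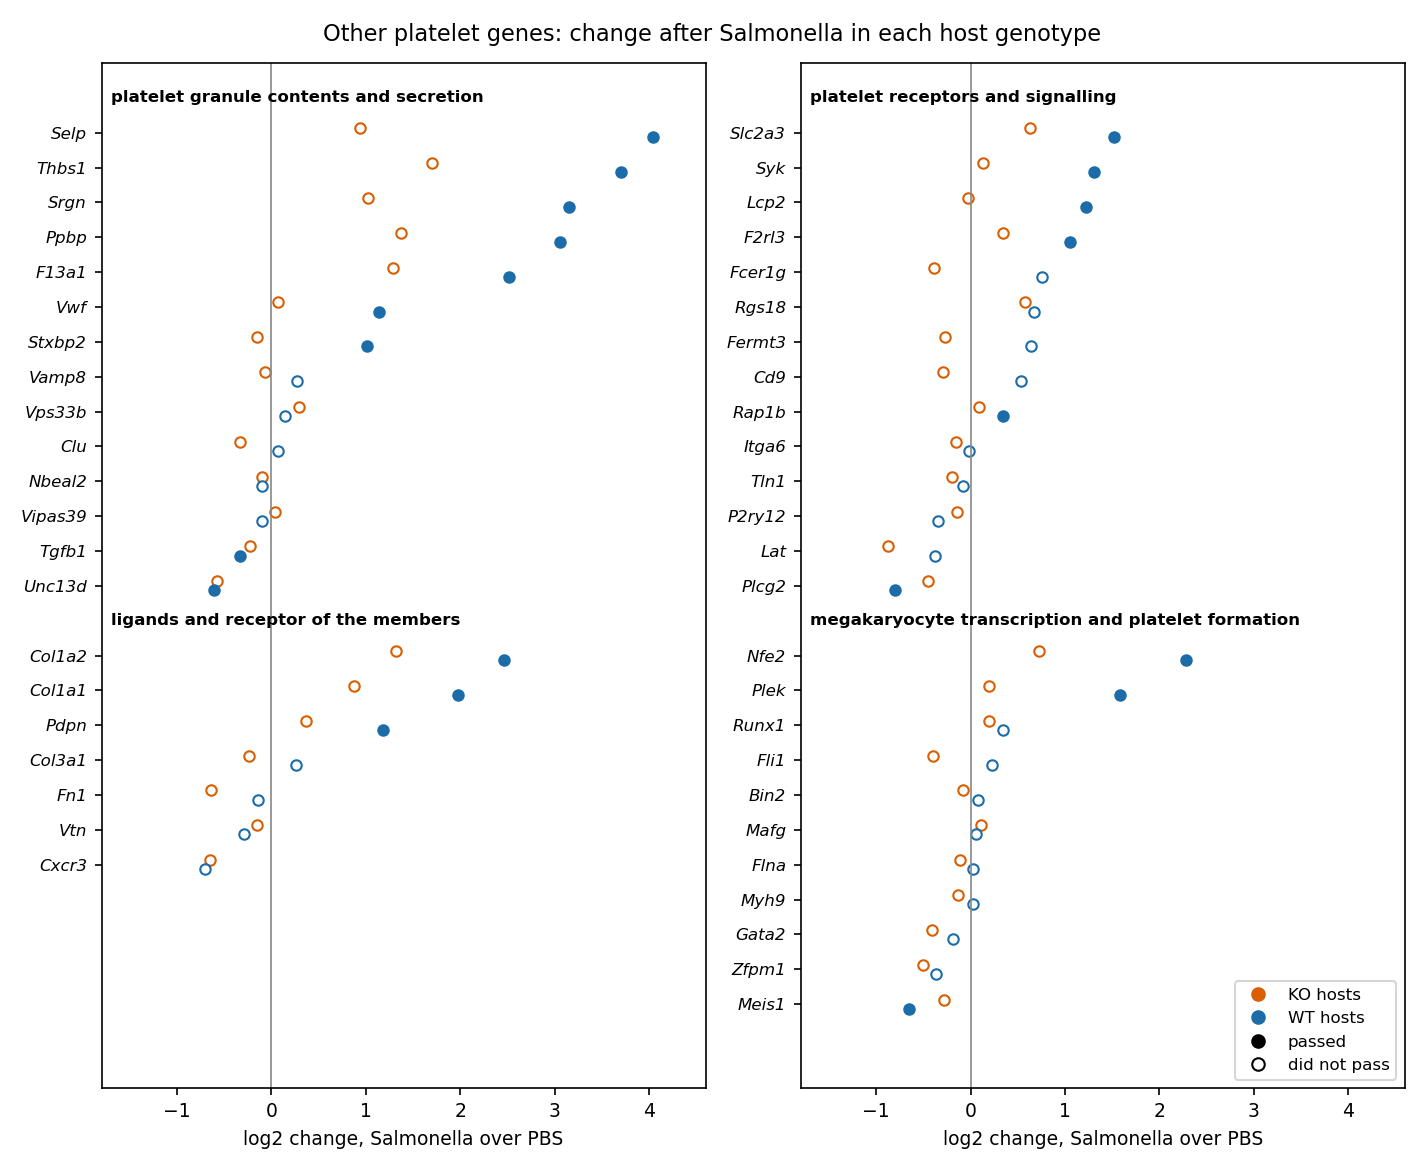
Log2 change, Salmonella over PBS, of each tested gene of the 4 lists in KO hosts (orange) and WT hosts (blue); filled circles passed at an adjusted p under 0.05, and Vwf, on both the granule and the ligand list, is drawn once. Filled circles are found in WT hosts alone, led by Selp, Thbs1, Srgn and Ppbp. Over all tested genes, 0.444% were called higher and 0.329% lower in KO hosts.

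Markers of other blood and vessel cells moved beside Pf4. Neutrophil markers (13 genes) summed to 580 to 1104 FPKM in KO Salmonella, 16.4 to 20.1 in KO PBS, 3206 to 21160 in WT Salmonella and 17.6 to 29.3 in WT PBS. Some of them, such as Cxcr2 and Ly6g, passed the filter through Salmonella libraries alone, so their entry to the test favoured a rise. In WT hosts 13 of 13 rose (median 5.02), against 18.6% over all genes. They were led by Retnlg (8.29), Cxcr2 (5.02) and S100a8 (9.10), with limma adjusted p = 8.18e-05, 8.18e-05 and 0.000121. Without WT Salmonella M-2, S100a8 had 9.69. In KO hosts 7 rose (median 2.24), against 0.444% over all genes, while voom called 1 of the 13. The highest neutrophil sum was in WT Salmonella M-1, where Pf4, at 131 FPKM, lay between its mates. Endothelial markers (15 genes) summed to 108 to 144 FPKM in KO Salmonella, 84.2 to 101.5 in KO PBS, 176 to 213 in WT Salmonella and 77.0 to 103 in WT PBS. Of these, 13 of 15 rose in WT hosts (median 1.27), against 18.6% over all genes. Among them were Sox18 (1.76, limma adjusted p = 0.000154), Emcn (1.77, adjusted p = 0.000604) and Plvap (1.16, adjusted p = 0.000697). In limma 0 passed in KO hosts (7 at an unadjusted p under 0.05, 0 in voom), against 0.444% higher and 0.329% lower over all genes. Sox18, Emcn and Plvap did pass there without WT Salmonella M-2 (limma adjusted p = 0.0386, 0.0303 and 0.0398).

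Red cell markers summed to 25.9 to 50.6 FPKM in KO Salmonella, 10.7 to 37.8 in KO PBS, 149 to 397 in WT Salmonella and 29.8 to 66.5 in WT PBS. In WT hosts 5 of 6 tested genes rose (median 2.29), against 18.6% over all genes. They were led by the globin genes Hbb-bs (2.95, limma adjusted p = 0.00512), Hbb-bt (2.41, adjusted p = 0.00949) and Hba-a2 (2.70, adjusted p = 0.012), which have nearly identical copies and are uncertain as single genes. Without WT Salmonella M-2, Hba-a2 had 3.32. None of the 6 passed in KO hosts (2 at an unadjusted p under 0.05, 0 in voom), against 0.444% higher and 0.329% lower over all genes. Macrophage markers (14 genes) summed to 502 to 745 FPKM in KO Salmonella, 569 to 1169 in KO PBS, 378 to 732 in WT Salmonella and 615 to 1073 in WT PBS, so these ranges overlapped in both hosts. In WT hosts 4 of the 14 rose and 1 fell, against 18.6% and 17% over all genes, which is no result about that list. Folr2 (2.30, limma adjusted p = 0.00625) and Mrc1 (2.07, adjusted p = 0.013) were among the rises. The fall was Cx3cr1 (-2.92, adjusted p = 0.00407), which had -3.73 without WT Salmonella M-2. None of the 14 macrophage markers passed in KO hosts (4 at an unadjusted p under 0.05, 0 in voom), near the same low shares over all genes. Cx3cr1 did pass there without WT Salmonella M-2 (-1.18, limma adjusted p = 0.00588). The part of blood content, of neutrophils, of endothelium and of macrophages in the values of Pf4, Tmem40 and Itgb3 was not tested.

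**Figure D5:**
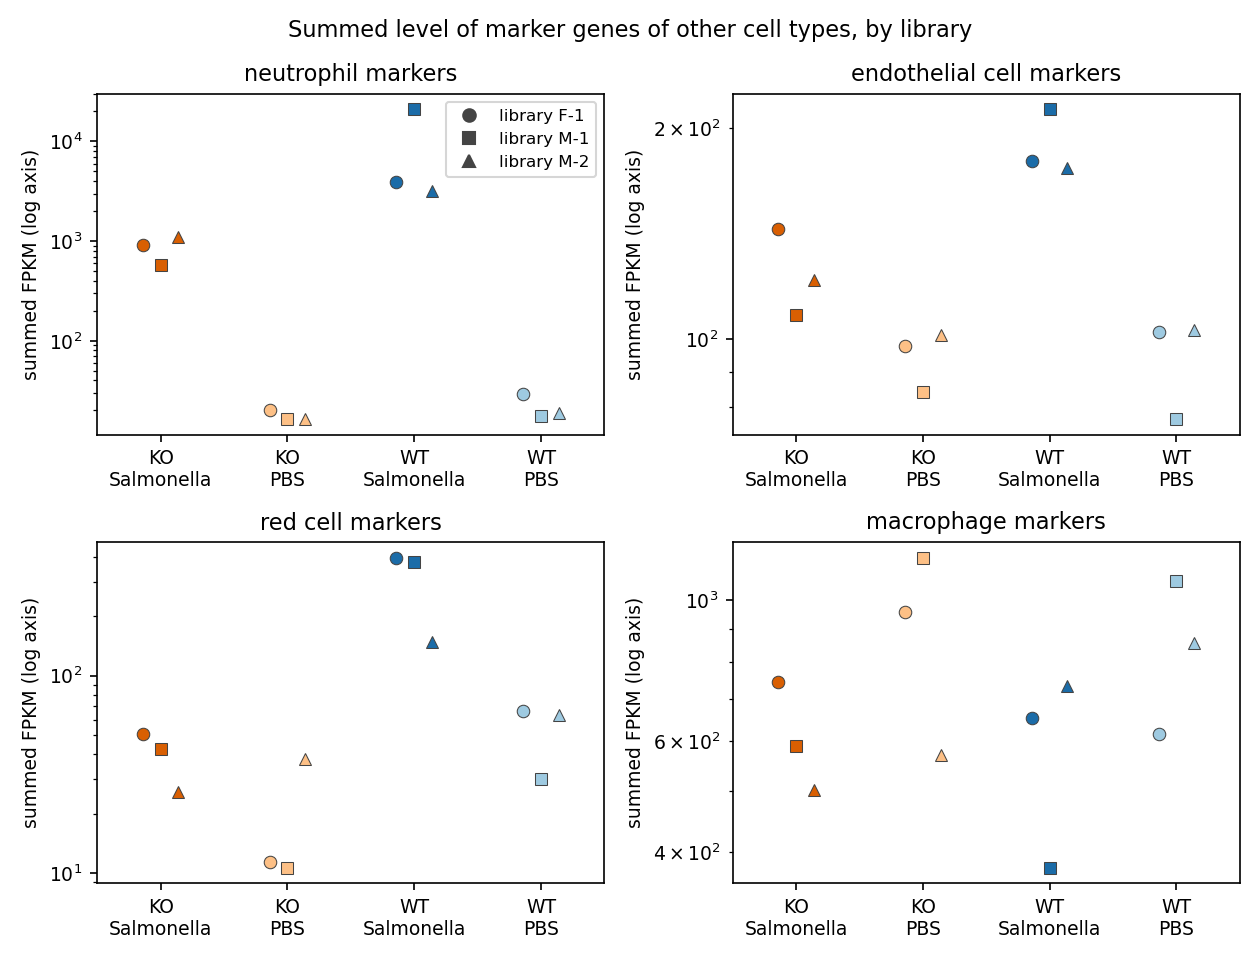
Summed FPKM (log axes) of neutrophil, endothelial, red cell and macrophage marker genes in each library, by host genotype and treatment; marker shapes give the title label. Neutrophil sums reach 3206 to 21160 in WT Salmonella and 580 to 1104 in KO Salmonella, and macrophage sums overlap between all groups.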

How the data were processed

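RNA of MC38 tumours was sequenced in 12 libraries, 3 for each host genotype and treatment. TRIzol extraction and the VAHTS Universal V6 kit are named in the labels' protocols, and fastp, HISAT2 and HTSeq in the submitters' processing notes. Build, annotation and strand setting were not stated in what was used here. The authors deposited 1 value per gene and library with no unit named; the values behave as FPKM. For 18222 of 18222 genes above 0 (100%), each FPKM came out as a whole number of fragments, within 0.01, at 1 length per gene; 387 genes were at 0 throughout. The recovered fragments, 30514108 to 38769090 per library, give the depth. Some recovered lengths differ from GENCODE M21, so low FPKM depend on the authors' gene models.

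The members and all gene lists were chosen with earlier results of these data known. A gene was tested if 3 or more libraries reached 0.5 FPKM (12164 genes). A gene below that level in all PBS libraries could enter only through Salmonella libraries, as Ppbp, Selp, Nfe2, Cxcr2 and Ly6g did. For such genes the filter favoured rises after Salmonella, in the lists and over all genes. The test was limma 3.58.1 (R 4.3.3), with trend and robust moderation, on log2 of scaled FPKM plus 0.5, and it had 8 residual degrees of freedom. Scaling used trimmed means of log ratios (trimming 30% of ratios and 5% of levels); factors lay between 0.997 and 1.048 except in WT Salmonella F-1 (0.851) and M-1 (0.853). The 5 comparisons were treatment in KO hosts, treatment in WT hosts, genotype with Salmonella, genotype with PBS, and the KO change minus the WT change. P-values were two-sided with Benjamini-Hochberg adjustment across the 12164 genes and a threshold of 0.05. Pf4 and Tmem40 were fitted but got no p-value. Besides the members and Tlr4, the genes named are, for each list, the 3 of smallest p for treatment in WT hosts, and the 10 nearest in pattern to Pf4 and to Tmem40, without predicted symbols. Alox12, F13a1, Gata1, Gp5, Itga2, Mmrn1, P2rx1, Rasgrp2, Srgn, Tal1, Tubb1, Vwf and the neighbours of Pf4 were named after their values were seen. No libraries of a group were alike within sampling noise. The fit was tested on simulated data. Alternatives were other scalings, filters and pseudocounts, voom on the recovered fragments, the compared groups alone, the replicate label or the title letter in the model, and each library left out.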

Additional observations from a re-analysis of the deposited data

Results flagged for a closer look

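Tmem40 moved in opposite directions in the 2 host genotypes. Each KO Salmonella library (1.01 to 1.39 FPKM) lay below each KO PBS library (1.70 to 2.94 FPKM), and each WT Salmonella library (3.76 to 4.90 FPKM) lay above each WT PBS library (0.845 to 1.45 FPKM). The change in KO hosts minus that in WT hosts was -2.32 on the log2 scale. The gene was selected on this pattern, so no call or p is given for it, and the difference was not tested in other samples. Over all alternatives the value ranged from -2.92 to -1.94, and from -2.51 to -2.15 with each library left out in turn. The genes nearest to Tmem40 in pattern were picked for their likeness, so directions shared with it are a description only. Group means of C1qtnf12, Acy1, Stap2, Rbm3-ps, Isyna1, Pla2g7, Lmo1 and Rbm3 fell in KO and rose in WT hosts. Unlike for Tmem40, KO libraries overlapped for Acy1 (15.9 to 26.2 FPKM with Salmonella, 23.7 to 32.8 with PBS) and for Rbm3 (140 to 190 and 151 to 198 FPKM). The group means of Myoz2 and Tspan12 did not fall in KO hosts.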

How the results depend on the processing

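In the following, a count is of the 8 genes other than Pf4 and Tmem40, of which Itgb3 and Itga2b could be tested. For Salmonella against PBS in WT hosts the count was 1, and 1 to 2 with each library left out; Itga2b was added without WT Salmonella M-2. For KO against WT with Salmonella it was 1, and fell to 0 with no filter, with only the groups compared and with voom; it was 0 to 1 with each library left out. For the difference between hosts it was 0, and 0 to 1 with each library left out. The cause was not tested.

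Over Itgb3, Itga2b and the named list genes, 2704 gene and comparison alternatives were run: 2560 stayed on their side of the threshold, 103 lost a call, 41 gained one and 0 reversed. Pf4 changes kept their size within the spread between libraries in all alternatives (3.73 to 3.99 in WT and 1.60 to 1.95 in KO hosts). For Tmem40 the pseudocount and voom moved the WT change between 1.38 and 2.02 and the difference between hosts between -2.92 and -1.94. FPKM as deposited shifted the median of all genes in WT hosts by -0.186 (log2), and then 30.8% in place of 52.2% of all calls were higher; the split of calls between KO and WT with Salmonella was 58.5% in place of 37.5% higher. Over all genes, calls in WT hosts numbered 4330 (2154 to 6312 with a library left out, 2438 with only the groups compared). In KO hosts they numbered 94 (4 to 738 with a library left out, 37 with no filter, 192 with only the groups compared, 45 with the replicate block, 23 with voom). Between KO and WT with Salmonella they numbered 1099 (36 to 4687 with a library left out, 12 with only the groups compared, 575 with voom).

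The replicate block changed no call of Itgb3 or Itga2b (Itgb3 in WT hosts adjusted p = 0.00925, and between KO and WT with Salmonella 0.0447). Libraries that share a label deviated in no common direction (correlations of -0.33 to 0.4 over 12 pairs). Those with the same title letter do share more than a label: F libraries held 0 or 1 Y-linked fragments and M libraries 266 to 1247. The 6 receptor genes below the filter hold at most 31 fragments per library; how far depth bears on the lack of calls among them was not tested.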
